A study of Rattus norvegicus with 10 samples.

Results

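The genes described here are Slc12a3, which encodes the thiazide-sensitive sodium chloride cotransporter (NCC), 6 genes of the WNK kinase pathway that controls it (Wnk1, Wnk4, Stk39, Oxsr1, Klhl3 and Cul3), and Pvalb, which encodes the calcium-binding protein parvalbumin. They were chosen by gene symbol, and each of the 8 symbols matched 1 row of the deposited table of 32545 genes. In all, 14508 genes, among them 7 of the 8, had a mean of at least 0.5 FPKM (fragments per kilobase of gene, scaled to library size) and were tested. Pvalb did not reach that level. RNA came from the kidney cortex of wild-type Dahl salt-sensitive rats (SS/JrHsdMcwi, an inbred strain that becomes hypertensive on a high-salt diet). One group of 5 libraries came from rats fed 4% NaCl together with 2% oxonic acid, an inhibitor of the urate-degrading enzyme uricase, for 3 weeks, and the reference was 5 libraries from rats fed 4% NaCl without oxonic acid (vehicle) for the same time. All rats ate 0.4% NaCl beforehand, so both groups were salt-loaded, and telemeters had been implanted at 8 to 9 weeks of age. Male and female rats are named for the study as a whole, without the sex of each sample, but the Y-linked genes Eif2s3y (34.6 to 48.7 FPKM) and Ddx3y (14.9 to 17.2 FPKM) were expressed in all 10 libraries, the pattern of male tissue. The labels do not tie each library to an animal of its own, so p-values measure the spread between these libraries, part of which may be technical.

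NCC carries sodium and chloride from the urine into cells of the distal convoluted tubule, a short segment of the nephron lying in the cortex, and it is the target of thiazide diuretics. WNK kinases phosphorylate and switch on the kinases SPAK (Stk39) and OSR1 (Oxsr1), which in turn phosphorylate NCC and the related cotransporter of the thick ascending limb. KLHL3 is the adaptor that brings WNK kinases to a ubiquitin ligase built on cullin 3, so that they are degraded, and mutations of WNK1, WNK4, KLHL3 or CUL3 cause familial hyperkalaemic hypertension in humans. Much of this control acts on phosphorylation and protein stability, which RNA levels do not measure. The question put by the diets is whether transcripts of the pathway differ when uricase is inhibited during salt loading.

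The libraries held 14.5 to 18.5 M (mega) reads in genes. Transcripts of the mitochondrial genome took 12.6% ± 0.773 of these reads in oxonic acid libraries and 11.2% ± 1.14 in vehicle libraries (SD, n = 5 each). Vehicle library 4 stood apart on the first principal component, at 39.8 against -13.7 to 15.5 for the other 9 libraries. The numbers in the sample descriptions form 3 runs, which the labels do not call batches: 3 libraries of oxonic acid and 0 of vehicle make up run A, 1 and 3 make up run B, and 1 and 2 make up run C. The run A libraries, oxonic acid 1, 2 and 3, were lowest on the first component, at -13.7, -11.9 and -11.8. Oxonic acid library 4, of run B, was next at -10.4. For run A, run and treatment cannot be told apart. For the cortex that the labels name, 8 of 8 proximal tubule markers and 4 of 4 podocyte markers reached the level to be tested. So did 4 of 4 inner medulla markers, so reaching that level does not tell cortex from medulla. Summed FPKM of 4 inner medulla markers was 120.6 in oxonic acid library 3 against 17.1 to 39.2 in the other 9.

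No member passed the test. In limma's test on log2(FPKM + 0.5) with Benjamini-Hochberg adjustment over all 14508 genes, 0 of the 7 tested members had an adjusted p under 0.05, as had 0% of all genes tested. At an unadjusted p under 0.05, limma found 3 of the 7 members higher with oxonic acid (Stk39, Klhl3 and Wnk1), beside 4.32% of all genes tested, and 0 lower, beside 5.17% (9.49% in either direction). On reads recovered from the FPKM, voom likewise called 0 members and had the same count of 3 at an unadjusted p under 0.05. That count was 1 (Stk39) with the library-number runs as a block, and 2 in 5 of the 10 fits that left out 1 library (oxonic acid libraries 2, 3 and 5 and vehicle libraries 2 and 4). The fitted log2 difference, oxonic acid minus vehicle, was above 0 for all 7, against 51.8% of all genes tested, with a median of 0.16 against 0.0053 over all tested genes. That of Oxsr1 turned below 0 when libraries were scaled to their summed reads, which moved the median of all genes to -0.026, and under voom. Scaling to summed reads lowered the log2 difference of all 7, that of Cul3 to 0.015 and that of Wnk4 to 0.020. In bulk tissue, fewer cells of a type and less RNA per cell cannot be told apart.

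**Figure D1:**
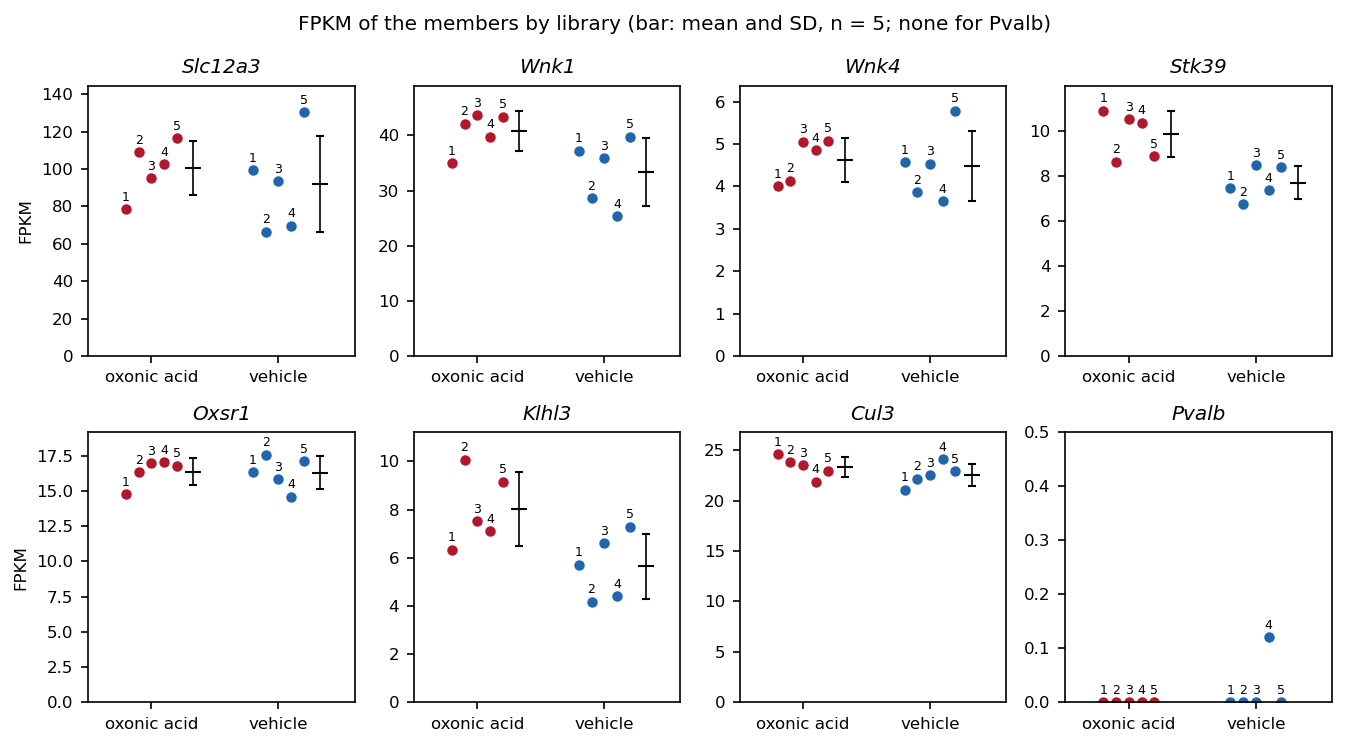
FPKM of each member in every library, on linear axes from 0; points are libraries numbered by replicate, oxonic acid left and vehicle right, and bars give the mean and SD (n = 5; none for Pvalb). The oxonic acid libraries of Stk39 all lie above the vehicle libraries, vehicle libraries 2 and 4 are low for Slc12a3, Wnk1, Wnk4 and Klhl3, and Pvalb is at 0 in 9 of 10 libraries.

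Slc12a3, the transporter at the end of the pathway, was the most abundant member, with a mean of 96.2 FPKM over the 10 libraries, a level above that of 93.9% of the genes tested. The gene (ENSRNOG00000057072) lies on the minus strand of chromosome 19 from base 11106033 to base 11144641. This and the positions of the other members are those of the deposited table, and the assembly behind them was not given in the sources used here. Slc12a3 measured 78.6, 109, 95.3, 103 and 116 FPKM in oxonic acid libraries 1 to 5, against 99.6, 66.5, 93.7, 69.8 and 131 FPKM in vehicle libraries 1 to 5. The groups overlapped: both the lowest values, in vehicle libraries 2 and 4, and the highest, in vehicle library 5, belonged to vehicle. The coefficient of variation was 14.4% with oxonic acid and 28.2% with vehicle. The log2 difference was 0.16 (95% interval -0.23 to 0.54, SE 0.18), with 4 of 5 oxonic acid libraries above the vehicle median (limma adjusted p = 0.787). With 4690 to 9211 reads of Slc12a3 per library, the spread between libraries rather than counting error set this interval.

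Wnk1 was the more abundant of the 2 WNK kinase genes among the members. Its row in the table (ENSRNOG00000009956, chromosome 4, 152452848 to 152578446, minus strand) sums every transcript of the gene. In the distal tubule much of it is known to be a short kidney-specific form that lacks most of the kinase domain, and the table cannot separate the forms. Wnk1 measured 34.9, 42.1, 43.6, 39.8 and 43.4 FPKM in oxonic acid libraries 1 to 5, against 37.2, 28.7, 35.8, 25.3 and 39.8 FPKM in vehicle libraries 1 to 5. Oxonic acid libraries 2, 3 and 5 were above every vehicle library, oxonic acid library 4 was level with vehicle library 5, and oxonic acid library 1 lay among the vehicle values, so the groups overlapped. The log2 difference was 0.30 (SE 0.12, 95% interval 0.036 to 0.57), which did not pass (limma adjusted p = 0.484). Within runs B and C the Wnk1 log2 difference was 0.24 and 0.44.

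Wnk4, like Wnk1 a WNK kinase gene with mutations that cause familial hyperkalaemic hypertension in humans, was the least abundant of the tested members. Wnk4 (ENSRNOG00000020441, chromosome 10, 89181165 to 89198213, plus strand) measured 4.00, 4.13, 5.06, 4.85 and 5.08 FPKM in oxonic acid libraries 1 to 5, against 4.57, 3.87, 4.53, 3.64 and 5.79 FPKM in vehicle libraries 1 to 5. The oxonic acid values lay inside the range of the vehicle values, which again had their lowest points in libraries 2 and 4 and their highest in library 5. The log2 difference was 0.050 (95% interval -0.21 to 0.31, limma adjusted p = 0.910), and it turned to -0.013 without vehicle library 4. The gene overlaps LOC100360002, a gene of 308 bp on the opposite strand with a mean of 26.2 FPKM. Wnk4 also lies within Rn60_10_0891.3, a gene on the same strand (89173843 to 89208961, mean 0.0029 FPKM). The sources used here do not say whether strand was used in counting or how reads shared by 2 genes were treated. The Wnk4 value is uncertain to that extent.

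Stk39, which encodes SPAK, the kinase that phosphorylates NCC directly, was the member whose groups did not overlap. Stk39 (ENSRNOG00000024808, chromosome 3, 54359451 to 54625414, minus strand) measured 10.9, 8.62, 10.5, 10.4 and 8.87 FPKM in oxonic acid libraries 1 to 5, against 7.46, 6.72, 8.48, 7.37 and 8.38 FPKM in vehicle libraries 1 to 5. Every oxonic acid library was above every vehicle library, the nearest pair being oxonic acid library 2 and vehicle library 3. Ranges were separate, with oxonic acid higher, in 0.944% of all genes tested, and in either direction in 1.91%. The log2 difference was 0.34 (SE 0.087, 95% interval 0.15 to 0.53), a ratio of group means of 1.28, and missed the threshold (limma adjusted p = 0.333). It ranked 110 of 14508 genes by p. Within runs B and C the Stk39 log2 difference was 0.44 and 0.17.

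Oxsr1, which encodes OSR1, the close relative of SPAK and the more widely expressed of the pair, differed little between the groups. Oxsr1 (ENSRNOG00000013136, chromosome 8, 127920349 to 128009951, minus strand) measured 14.8, 16.3, 17.0, 17.0 and 16.8 FPKM in oxonic acid libraries 1 to 5, against 16.3, 17.6, 15.9, 14.6 and 17.1 FPKM in vehicle libraries 1 to 5. Each group had 1 library under 15 FPKM, oxonic acid library 1 and vehicle library 4. The log2 difference of 0.0078 had a 95% interval of -0.13 to 0.15 (limma adjusted p = 0.980), and its sign changed with the scaling and with which library was left out.

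Klhl3, the adaptor that delivers WNK kinases to the ubiquitin ligase, had the widest difference of the members. Klhl3 (ENSRNOG00000019533, chromosome 17, 6935860 to 7029240, plus strand) measured 6.34, 10.1, 7.51, 7.10 and 9.15 FPKM in oxonic acid libraries 1 to 5, against 5.71, 4.17, 6.61, 4.41 and 7.30 FPKM in vehicle libraries 1 to 5. All 5 oxonic acid libraries were above the vehicle median and 3 were above every vehicle library, so the groups overlapped in part. The log2 difference was 0.49 (SE 0.16, 95% interval 0.12 to 0.85), a ratio of group means of 1.42, and missed the threshold (limma adjusted p = 0.411). Within runs B and C the Klhl3 log2 difference was 0.36 and 0.64. The gene model was 1401 bp and drew 95 to 205 reads per library, the fewest of the tested members.

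Cul3, the scaffold of that ubiquitin ligase and a gene used in most cells, was the steadiest member. Cul3 (ENSRNOG00000015633, chromosome 9, 86044485 to 86103158, minus strand) measured 24.6, 23.8, 23.5, 21.9 and 23.0 FPKM in oxonic acid libraries 1 to 5, against 21.1, 22.2, 22.5, 24.1 and 22.9 FPKM in vehicle libraries 1 to 5. The groups overlapped, and the coefficient of variation was 4.33% with oxonic acid and 4.93% with vehicle. Its log2 difference was 0.049 (95% interval -0.065 to 0.16, limma adjusted p = 0.772), and it was below 0 within the runs, at -0.0022 in run B and -0.033 in run C.

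Pvalb, whose protein marks the early distal convoluted tubule in mice, was listed at 0 in all 5 oxonic acid libraries and in 4 of 5 vehicle libraries, with 1 read in vehicle library 4. A count of 0 allows up to 3 reads, which for this gene of 537 bp (ENSRNOG00000006471, chromosome 7, 119429019 to 119441487, minus strand) was 0.294 to 0.385 FPKM, a limit that covers counting error only. No difference was detectable for Pvalb at this depth, and no ratio to Slc12a3 was formed. Of 8 markers listed for that segment, Pvalb was the one that did not reach the level to be tested.

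By mean FPKM per gene length, the order of the levels was Slc12a3, Wnk1 (37.1), Cul3 (22.9), Oxsr1 (16.3), Stk39 (8.76), Klhl3 (6.84) and Wnk4 (4.55). Stk39 and Klhl3 overlapped over the 10 libraries, as did Klhl3 and Wnk4, while the other neighbours in this order did not overlap.

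Ratios of 2 genes within a library depend little on how libraries were scaled (only through the pseudocount of 0.5), and 3 were compared by two-sided exact permutation tests over all arrangements of the libraries, with p-values adjusted over the 3. They set Wnk4 against Wnk1, Stk39 against Oxsr1, and Slc12a3 against Slc12a1, the gene of the loop-diuretic-sensitive cotransporter of the thick ascending limb. The gene pairs were chosen with earlier results of these data known.

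There was less Wnk4 relative to Wnk1 in the oxonic acid libraries. The log2 ratio of Wnk4 to Wnk1 was -2.98, -3.20, -2.99, -2.91 and -2.98 in oxonic acid libraries 1 to 5, against -2.89, -2.74, -2.85, -2.64 and -2.68 in vehicle libraries 1 to 5. Every oxonic acid library was below every vehicle library, by a narrow margin between oxonic acid library 4 and vehicle library 1. The means were -3.01 ± 0.11 with oxonic acid and -2.76 ± 0.11 with vehicle (SD, n = 5 each), a difference of -0.25 (95% interval -0.41 to -0.090, exact permutation p = 0.00794, the smallest that 5 against 5 libraries can give, adjusted p = 0.0238). The ratio's difference was -0.084 within run B and -0.32 within run C, and with the runs as a block it was -0.19 with an exact permutation p of 0.0833, the smallest that 12 arrangements can give. For Wnk1 alone the log2 difference was 0.30, for Wnk4 alone it was 0.050, and the overlaps of Wnk4 with LOC100360002 and Rn60_10_0891.3 apply to the ratio too. This pair was also chosen with earlier results of these data known. The ratio is therefore not independent evidence of the higher Wnk1 level, and its adjusted p does not account for the choice.

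Stk39 was higher relative to Oxsr1 in the oxonic acid libraries. The log2 ratio of Stk39 to Oxsr1 was -0.42, -0.88, -0.67, -0.69 and -0.88 in oxonic acid libraries 1 to 5, against -1.08, -1.32, -0.87, -0.94 and -0.99 in vehicle libraries 1 to 5. Oxonic acid libraries 1, 3 and 4 were above every vehicle library, while libraries 2 and 5 were below vehicle library 3. The means were -0.71 ± 0.19 with oxonic acid and -1.04 ± 0.18 with vehicle (SD, n = 5 each), a difference of 0.33 (95% interval 0.063 to 0.60, exact permutation p = 0.0238, adjusted p = 0.0357). The call ended when any 1 of 5 libraries was left out (oxonic acid library 1 and vehicle libraries 1, 2, 4 and 5), with adjusted p up to 0.0833, and with the runs as a block, where the difference was 0.25 (exact permutation p = 0.167). Within runs B and C the ratio differed by 0.40 and 0.081. Since the higher level of Stk39 was known when the pair was chosen, the ratio is not independent evidence of it.

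Slc12a3 relative to Slc12a1 varied widely within both groups. The log2 ratio of Slc12a3 to Slc12a1 was -1.58, 0.13, -0.71, -0.62 and 0.63 in oxonic acid libraries 1 to 5, against -0.19, -0.75, -0.23, -0.76 and 1.10 in vehicle libraries 1 to 5. The groups overlapped, with oxonic acid library 1 below and vehicle library 5 above all others. The means were -0.43 ± 0.85 with oxonic acid and -0.16 ± 0.76 with vehicle (SD, n = 5 each), a difference of -0.27 with a 95% interval of -1.44 to 0.90 (exact permutation p = 0.627). Slc12a1 itself spanned 75.3 to 236 FPKM with oxonic acid and 60.5 to 118 FPKM with vehicle. Summed FPKM of 7 thick ascending limb markers was highest in oxonic acid library 1, at 2917, and lowest in vehicle library 5, at 1202. Those libraries had the lowest and the highest ratio, but Slc12a1 is 1 of the 7 markers summed, so the match is partly built in, and the part of the other markers was not tested. A sum of FPKM follows its most abundant genes: Umod, another of the 7, averaged 1477 FPKM over all libraries against 124 FPKM for Slc12a1.

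**Figure D2:**
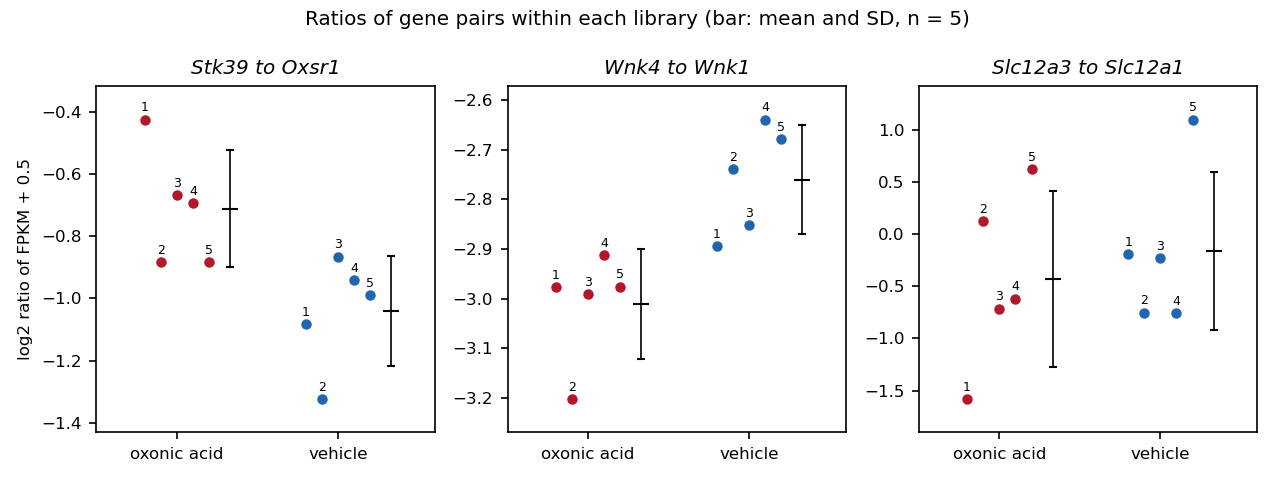
Log2 ratio of FPKM + 0.5 for 3 pairs of genes in each library; points are libraries numbered by replicate, oxonic acid left and vehicle right, and bars give the mean and SD (n = 5). The groups are separate for Wnk4 to Wnk1, overlap in part for Stk39 to Oxsr1 and overlap widely for Slc12a3 to Slc12a1.

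Levels of some members were correlated across the libraries. Of the 21 pairs that the 7 tested members form, 5 passed for Pearson's r on log2(FPKM + 0.5) over the 10 libraries (permutation test with 100000 resamples, adjusted over the 21), and all 5 lie among Slc12a3, Wnk1, Wnk4 and Klhl3. By Spearman's rho 1 of the 21 passed. The share of other gene pairs that would pass was not computed, so the count does not set these members apart from other genes. The 3 genes outside the members that followed Slc12a3 most closely, picked among many, had r of 0.94 to 0.96, above that of any member. Wnk1 with Klhl3 had r = 0.90 (permutation p = 0.00041, adjusted p = 0.00861) and Spearman's rho = 0.89 (permutation adjusted p = 0.0286). Slc12a3 had r = 0.85 with Wnk4, 0.84 with Wnk1 and 0.82 with Klhl3 (permutation p = 0.00183, 0.00221 and 0.00490; adjusted p = 0.0155, 0.0155 and 0.0257). For these 3 pairs rho was 0.83, 0.73 and 0.79 (permutation p = 0.00506, 0.0205 and 0.00949), and none passed by rho after adjustment, at 0.0531, 0.0863 and 0.0664. Wnk1 with Wnk4, the remaining pair to pass, had r = 0.75 (permutation p = 0.00995, adjusted p = 0.0418) and rho = 0.77 (permutation p = 0.0127, adjusted p = 0.0668). The sixth pair of these 4 genes, Wnk4 with Klhl3, did not pass (r = 0.56, permutation p = 0.0941, adjusted p = 0.198; rho = 0.65, permutation p = 0.0491, adjusted p = 0.172). With the group means removed, r for the 5 pairs was 0.83 to 0.90.

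Without vehicle libraries 2 and 4, where values were low, r fell for each of the pairs that passed. Those 2 libraries lay farthest from the median of Slc12a3 and of Wnk1, and without them r was 0.77 for Wnk1 with Klhl3 and 0.74 for Slc12a3 with Wnk4 (permutation p = 0.0261 and 0.0369, n = 8), whereas Slc12a3 with Wnk1 and with Klhl3 gave 0.59 and 0.50 (permutation p = 0.126 and 0.207) and Wnk1 with Wnk4 gave 0.46 (permutation p = 0.258). These last 3 pairs did not reach a permutation p under 0.05 without those libraries. Leaving out the farthest libraries also narrows the range and lowers n, so this cannot tell whether the relations rest on them. Slc12a3 with Stk39 had r = 0.31 (permutation p = 0.385, rho = 0.27) over the 10 libraries, and -0.51 without the same 2 libraries. The runs hold 3 or 4 libraries each, too few for a correlation within a run.

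**Figure D3:**
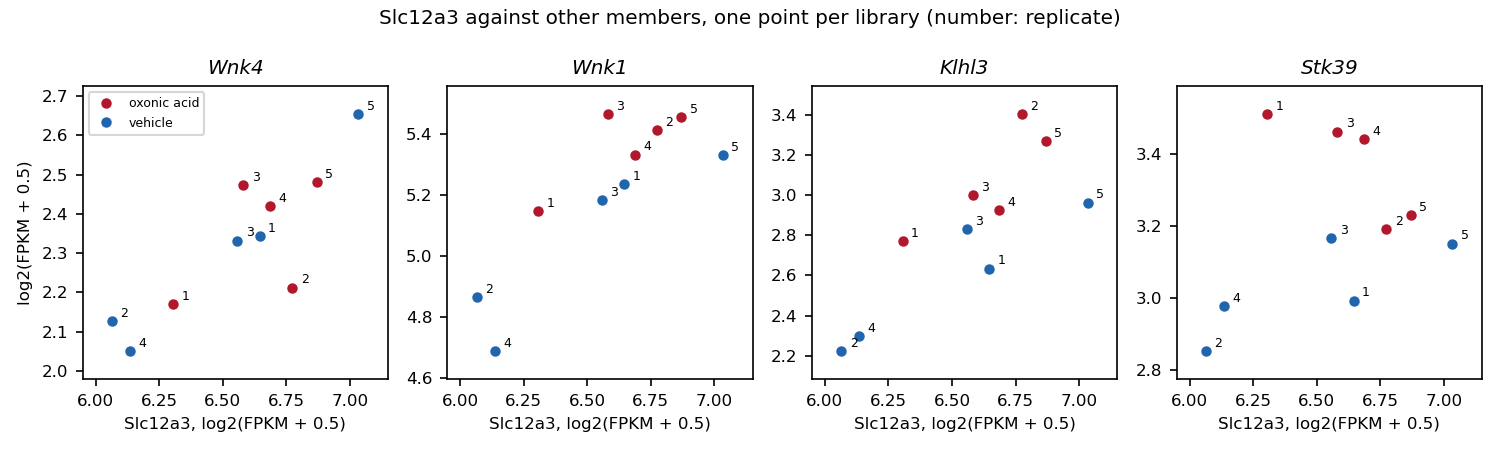
Slc12a3 on the horizontal axis against Wnk4, Wnk1, Klhl3 and Stk39 on the vertical axes, both as log2(FPKM + 0.5), 1 point per library, numbered by replicate. Vehicle libraries 2 and 4 sit at the lower left for Wnk4, Wnk1 and Klhl3 (r = 0.85, 0.84 and 0.82), while the points for Stk39 are scattered (r = 0.31).

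Promoter windows of these 4 genes are shown because each of the pairs that passed lies among them. Each window lies before an annotated start, and whether the short kidney-specific form of Wnk1 starts there was not examined. RefSeq's promoter table (build GRCr8) held 7 of the 8 members. Each line gives the 250 bases before the annotated start, 5′ to 3′ on the gene's strand, with capitals marking matches on either strand to TATAAA (the TATA box), CCAAT (the CCAAT box) and GGGCGG (the GC box); the matches do not overlap each other. The regions are chr19:10675051-10675300 (minus strand) for Slc12a3, chr10:86702708-86702957 (plus strand) for Wnk4, chr4:154926148-154926397 (minus strand) for Wnk1 and chr17:6528237-6528486 (plus strand) for Klhl3.
Slc12a3: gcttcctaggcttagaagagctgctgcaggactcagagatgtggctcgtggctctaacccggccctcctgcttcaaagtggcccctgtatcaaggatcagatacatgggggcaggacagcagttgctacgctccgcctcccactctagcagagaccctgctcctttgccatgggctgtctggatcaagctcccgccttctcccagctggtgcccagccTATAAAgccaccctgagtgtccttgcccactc
Wnk4: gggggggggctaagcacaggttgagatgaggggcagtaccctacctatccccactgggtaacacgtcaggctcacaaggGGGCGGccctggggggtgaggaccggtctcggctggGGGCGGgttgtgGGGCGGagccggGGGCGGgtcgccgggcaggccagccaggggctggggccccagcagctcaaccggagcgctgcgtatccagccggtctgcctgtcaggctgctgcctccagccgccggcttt
Wnk1: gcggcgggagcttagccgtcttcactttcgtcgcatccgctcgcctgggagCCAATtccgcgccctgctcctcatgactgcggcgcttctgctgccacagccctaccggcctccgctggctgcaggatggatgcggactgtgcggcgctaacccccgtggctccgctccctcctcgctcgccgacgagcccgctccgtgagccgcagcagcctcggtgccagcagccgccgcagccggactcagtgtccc
Klhl3: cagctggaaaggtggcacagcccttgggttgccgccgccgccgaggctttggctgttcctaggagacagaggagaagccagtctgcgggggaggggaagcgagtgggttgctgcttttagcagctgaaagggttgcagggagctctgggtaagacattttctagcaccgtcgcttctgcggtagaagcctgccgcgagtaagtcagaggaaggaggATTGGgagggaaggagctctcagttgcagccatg

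These letters differed between the 4 windows. Slc12a3 held TATAAA from -32 to -27 relative to the start, a motif found in 12.9% of 33469 RefSeq windows of the same length. Wnk4 held GGGCGG 4 times on its own strand (30.5% of windows hold it at least 1 time) and no TATAAA. Wnk1 held CCAAT from -199 to -195, and Klhl3 held it on the opposite strand from -34 to -30 (34.0% of windows). None of the 3 motifs was present in all 4 windows, and a match is a description of the letters only.

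Among 11766 other named genes with a mean of at least 1 FPKM, the 3 whose log2 values followed Slc12a3 most closely over the 10 libraries were Aldh5a1, the mitochondrial succinate semialdehyde dehydrogenase (r = 0.96, rho = 0.95), Nrd1, which encodes the peptidase nardilysin (r = 0.96, rho = 0.95), and Abca2, a lipid transporter (r = 0.94, rho = 0.95). Aldh5a1 averaged 3.41 ± 0.310 FPKM in oxonic acid and 3.02 ± 0.586 FPKM in vehicle libraries (SD, n = 5 each). Those nearest to Stk39 were Ptpra, a receptor tyrosine phosphatase (r = 0.95, rho = 0.92), Aplp2, an amyloid precursor-like protein (r = 0.94, rho = 0.96), and Cyfip2, a regulator of actin assembly (r = 0.92, rho = 0.90). Cyfip2 averaged 22.7 ± 4.88 FPKM in oxonic acid and 15.4 ± 2.01 FPKM in vehicle libraries (limma adjusted p = 0.335). They were picked for their high r among many genes, so the values are a description of these libraries.

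The rest of the pathway did not move as a block. Of 30 other genes in 5 lists, 27 were tested: 0 passed (limma, adjusted over all genes, smallest adjusted p = 0.420), 13 had a log2 difference above 0 and 14 below, against 51.8% above 0 over all genes tested, and the median was -0.0089. At an unadjusted p under 0.05, 3 of the 27 were higher (beside 4.32% of all genes tested) and 0 lower (beside 5.17%).

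Among the kinases and scaffolds upstream of NCC, 0 of 3 tested genes passed. Wnk2 and Wnk3, the other WNK kinase genes, were near 0, at 0.0685 and 0.0949 FPKM over all libraries, and were not tested. The median log2 difference of the 3 tested genes of that list was 0.024. Cab39 (MO25), the scaffold that boosts SPAK and OSR1, averaged 45.2 ± 3.26 FPKM in oxonic acid and 44.2 ± 1.83 FPKM in vehicle libraries (SD, n = 5 each; log2 difference 0.028). Sgk1, the aldosterone-induced kinase that restrains the ubiquitin ligase Nedd4-2, averaged 43.4 ± 11.0 FPKM in oxonic acid and 48.1 ± 7.62 FPKM in vehicle libraries (log2 difference -0.17).

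Genes that modify or build the cullin ligase were listed together with Nedd4l, which encodes the separate ligase Nedd4-2. The 7 genes had log2 differences of -0.097 to 0.036, the highest being that of Nedd4l, with 2 of 7 above 0 and 5 below. Nedd8, the ubiquitin-like protein that activates cullins, averaged 96.9 ± 5.88 FPKM in oxonic acid and 104 ± 6.30 FPKM in vehicle libraries (SD, n = 5 each; log2 difference -0.097, limma adjusted p = 0.599). Rbx1, the RING subunit of the cullin ligase, averaged 139 ± 3.31 FPKM and 146 ± 20.5 FPKM in the same order (log2 difference -0.065). Klhl2, the closest relative of Klhl3, averaged 12.9 ± 0.981 FPKM in oxonic acid and 12.7 ± 0.881 FPKM in vehicle libraries (log2 difference 0.018).

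Of 6 genes for phosphatases of NCC, their subunits or inhibitors, 4 had a log2 difference below 0, with a median of -0.064. Ppp3cb, a catalytic subunit of calcineurin, averaged 15.6 ± 0.519 FPKM in oxonic acid and 16.7 ± 0.837 FPKM in vehicle libraries (SD, n = 5 each; log2 difference -0.089, limma adjusted p = 0.591). The widest difference of the list ran the other way: Ppp1r1a, the inhibitor of protein phosphatase 1, averaged 91.0 ± 25.4 FPKM in oxonic acid and 73.2 ± 13.9 FPKM in vehicle libraries (log2 difference 0.29, limma adjusted p = 0.603). Ppp4c, the catalytic subunit of protein phosphatase 4, averaged 31.8 ± 1.36 FPKM in oxonic acid and 35.2 ± 4.79 FPKM in vehicle libraries (log2 difference -0.14, limma adjusted p = 0.602).

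Basolateral channels of the distal tubule, which set the cell chloride that WNK kinases sense, had 3 of 4 log2 differences above 0. Kcnj10, the potassium channel Kir4.1 of the distal convoluted tubule, averaged 13.2 ± 1.36 FPKM in oxonic acid and 9.56 ± 2.87 FPKM in vehicle libraries (SD, n = 5 each; log2 difference 0.49, SE 0.19, limma adjusted p = 0.473). Bsnd, which encodes barttin, the subunit that chloride channels of the ClC-K type need, averaged 25.2 ± 1.68 FPKM and 21.3 ± 2.69 FPKM in the same order (log2 difference 0.24, SE 0.087, limma adjusted p = 0.420). For both genes all 5 oxonic acid libraries were above the vehicle median, and neither passed. Kcnj16, the partner of Kcnj10, had a log2 difference of -0.039.

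Other members of the SLC12 family had 4 of 7 log2 differences above 0, with a median of 0.11. Slc12a2, the widely expressed cotransporter NKCC1 and another substrate of SPAK, averaged 6.99 ± 0.482 FPKM in oxonic acid and 6.16 ± 0.548 FPKM in vehicle libraries (SD, n = 5 each; log2 difference 0.17, SE 0.076, limma adjusted p = 0.519). Slc12a5 did not reach the level to be tested.

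**Figure D4:**
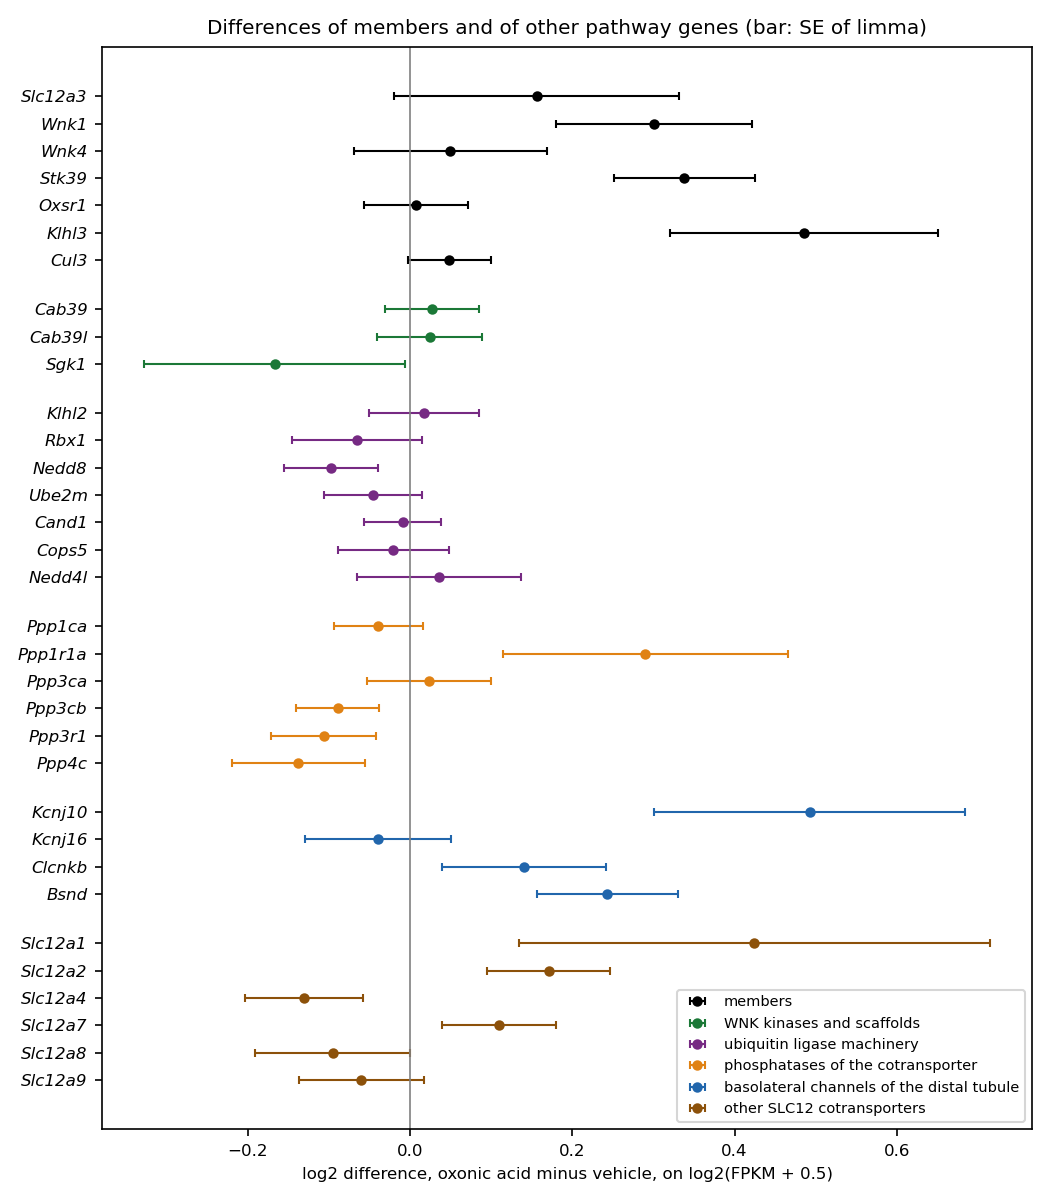
Log2 difference, oxonic acid minus vehicle, on log2(FPKM + 0.5), for the 7 tested members (top) and other genes of the pathway in 5 lists; points are limma estimates and bars their SE. Klhl3, Stk39 and Wnk1 lie right of 0 at 0.49, 0.34 and 0.30, the ligase genes lie between -0.097 and 0.036, and Kcnj10 lies at 0.49; none passed.

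Markers of the segment that holds NCC were also compared. Of 8 markers listed for the distal convoluted tubule, 7 were tested and had log2 differences above 0; Slc12a3, Klhl3 and Wnk4 are among them, and 0 passed in limma (4 of the 7, Klhl3 among them, were higher at an unadjusted p under 0.05, beside 4.32% of all genes tested). Of those that are not members, which were picked after their values were seen, Trpm6, the magnesium channel of the segment, averaged 4.39 ± 0.267 FPKM in oxonic acid and 3.35 ± 0.397 FPKM in vehicle libraries (SD, n = 5 each; log2 difference 0.35), and Tmem52b averaged 64.5 ± 4.37 FPKM and 62.5 ± 14.2 FPKM in the same order (log2 difference 0.073). The summed FPKM of the 4 markers that are not members (Trpm6, Egf, Cnnm2 and Tmem52b) was 112 to 130.3 with oxonic acid and 82.3 to 136 with vehicle. It was lowest in vehicle libraries 2 and 4, at 82.3 and 96.0, the libraries lowest in Slc12a3 and Klhl3. Vehicle library 2 was also the lowest of all libraries in summed collecting duct principal cell, intercalated cell and proximal tubule markers, at 260, 142 and 4047. It was not the lowest in thick ascending limb or podocyte markers. The part of these sums in the results was not tested.

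No marker of the other cell types passed in limma, and the summed levels of each list overlapped between the groups. Summed FPKM of 7 collecting duct principal cell markers was 346 to 469 with oxonic acid and 260 to 357 with vehicle, with 7 of 7 log2 differences above 0. That of 7 intercalated cell markers was 197 to 216 with oxonic acid and 142 to 215 with vehicle. At an unadjusted p under 0.05 in limma, 4 of the principal cell and 2 of the intercalated cell markers were higher, beside 4.32% of all genes tested. Proximal tubule markers summed to 4480 to 5886 with oxonic acid and 4047 to 5834 with vehicle. Of the leukocyte markers, 1 of 5 (Cd3e) was lower at an unadjusted p under 0.05 in limma, beside 5.17% of all genes tested, and the list had 5 of 5 log2 differences below 0 and summed to 696 to 769 with oxonic acid and 703 to 937 with vehicle. Cd74 made up most of that sum, at 662 to 735 FPKM with oxonic acid and 666 to 898 FPKM with vehicle. Of the listed skeletal muscle markers, which would accompany Pvalb from muscle, Ckm and Actn3 were near 0, and the list summed to 4.37 to 5.91 FPKM with oxonic acid and 4.47 to 6.35 FPKM with vehicle. Mylpf and Tnnt3 reached the level to be tested. Mylpf was the most abundant of the list, at 3.30 to 4.44 FPKM with oxonic acid and 2.96 to 4.54 FPKM with vehicle. The part of these cell types in the members' values was not tested.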

How the data were processed

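The deposited table gives FPKM per gene and library, computed by the authors. featureCounts 1.5.0-p3, StringTie 1.3.3b, HISAT2 2.0.5 and fastp are listed, with no order or role, per the submitters' processing notes. The assembly was not given in the sources used here. Per the labels' protocols, libraries were poly-A selected, with directional and non-directional preparation both described. FPKM times the deposited gene length (other unit: bases, from the file) was a whole multiple of 1 constant per library (100% of values within 0.01 read), which gave the reads per gene. The authors' library size was 0.977 to 1.04 times the sum of these reads. It was 0.992 ± 0.012 times the sum with oxonic acid and 1.015 ± 0.015 times with vehicle (SD, n = 5 each), so the scaling differed between the groups. Samples were grouped by treatment label and columns matched by library name.

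Genes with a mean of at least 0.5 FPKM were tested on log2(FPKM + 0.5) with limma 3.58.1 (R 4.3.3), using lmFit and eBayes(trend), two-sided, Benjamini-Hochberg threshold 0.05; the pseudocount understates changes of low genes. Intervals of 95% are unadjusted, and those of the ratios are t intervals with pooled variance, not intervals from the permutation tests. Ratios used exact permutation tests and correlations 100000 resamples (Python 3.11.15, scipy 1.17.1). The test was tried on simulated data with known changes. Besides every member, the text names the 2 genes of each pathway list with the smallest p, other list genes by list, and the 3 genes nearest in r to Slc12a3 and Stk39. The values of 1 list gene are not reported here, though the list counts include it. Members, lists, ratios and tests were chosen with earlier results of these data known. Alternatives covered the pseudocount, filter, scaling, test, blocks and leaving out each library. The planned ratio of Pvalb to Slc12a3 was not formed, and correlations covered 21 pairs, because Pvalb was at 0. FPKM measures relative abundance and sums all transcripts of a gene.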

Additional observations from a re-analysis of the deposited data

Results flagged for a closer look

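The log2 ratio of Wnk4 to Wnk1 in oxonic acid library 2, at -3.20, lay apart from the other 4 libraries of its group, the nearest of which was at -2.99; the gap was 0.731 of the group's range. In that library Wnk4 measured 4.13 FPKM and Wnk1 42.1 FPKM. Without it the difference from vehicle was -0.20 (exact permutation p = 0.0238, adjusted p = 0.0357), against -0.25 with it. Of 20 group checks on the 7 tested members and the 3 ratios, 1 gave such a gap, and chance gives about 1 in 20.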

How the results depend on the processing

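Under 21 alternatives each, the 7 tested members kept their direction in 138 of 147 comparisons, and none passed (smallest limma adjusted p 0.245). Changing the filter, fitting without the trend and using the replicate number as a block cannot alter a member's log2 difference. Those comparisons, counted among the 138, kept their direction by construction. The 9 changes of direction were small: Wnk4 at -0.013 without vehicle library 4, Cul3 at -0.017 with the library-number runs as a block, and Oxsr1 at -0.025 when scaled to summed reads, -0.027 with voom, and below 0 on leaving out any 1 of 5 libraries (range over all 10: -0.030 to 0.044). Leaving out 1 library gave 0.051 to 0.29 for Slc12a3, 0.21 to 0.37 for Wnk1, -0.013 to 0.14 for Wnk4, 0.29 to 0.38 for Stk39, 0.39 to 0.58 for Klhl3 and 0.025 to 0.073 for Cul3. The count of genes called was 1 with array weights, and 0 to 1 on leaving out 1 library (1 without vehicle library 1), against 0 otherwise; members called stayed at 0.

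The ratio of Wnk4 to Wnk1 kept its call on leaving out any 1 library (-0.28 to -0.20). That of Stk39 to Oxsr1 ranged from 0.26 to 0.37, and 5 of 10 such calls ended. With the replicate number as a replicate block the differences were -0.25 and 0.33, and neither call held (exact permutation p = 0.0625 for both, the smallest that 32 arrangements give). With the runs as a block they were -0.19 and 0.25, and the calls ended, where no p under 0.0833 is possible. Slc12a3 to Slc12a1 turned to 0.091 with the runs as a block, and leaving out 1 library gave -0.53 to 0.049, above 0 without oxonic acid library 1 (0.019) or vehicle library 5 (0.049). For these changes the cause was not tested. Same-numbered samples deviated together with r of -0.013 to 0.20, so the numbers are not taken as pairs. At 95 to 205 reads Klhl3 is the tested member limited most by depth.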

Other observations

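Among marker genes picked after their values were seen, those of the late distal convoluted and connecting tubule, which follows the segment of Slc12a3, differed in both directions and none of the 5 passed. Slc8a1, the sodium-calcium exchanger, averaged 17.9 ± 1.34 FPKM in oxonic acid and 12.5 ± 3.88 FPKM in vehicle libraries (SD, n = 5 each; log2 difference 0.55, limma adjusted p = 0.396), and Calb1, the calcium-binding protein calbindin, averaged 194 ± 17.0 FPKM and 151 ± 57.5 FPKM in the same order (log2 difference 0.45, limma adjusted p = 0.561). Trpv5, the calcium channel of the same cells, averaged 5.17 ± 0.585 FPKM in oxonic acid and 5.88 ± 0.781 FPKM in vehicle libraries (log2 difference -0.17). The summed FPKM of the 5 markers was 292.2 to 340.2 with oxonic acid and 174 to 358 with vehicle, with vehicle libraries 2 and 4 lowest at 174 and 191.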
